A study of Mus musculus with 4 samples.

Results

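The genes of an 8 Mb interval of mouse chromosome 4 were compared between the inflamed ears of mutant and wild-type mice, probe by probe along the chromosome. Positions are those of build mm9 (NCBI37), on which the last probe of the interval ends at 134968754. The interval was chosen from the same comparison, because several of its genes had shown lower values in the mutants, so every difference between the genotypes inside it is given as a description and supports nothing. Its members are all array probes with a position inside the interval, except those for genes whose names start with Snhg, Nduf, Cox, Rpl or Rps, and Lck. That left 393 of the 55681 probes of the array (420 of 59305 spots), for 216 gene or transcript names, of which 79 are names of clones, accessions or predicted transcripts and the others full gene symbols. The rule removed 4 probes, those of Lck, Snhg3, Snhg12 and Rps6ka1, the last a kinase gene whose name only shares its first letters with the ribosomal genes.

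The RNA came from ear tissue collected 48 h after treatment of the ear with 2,4-dinitrofluorobenzene (DNFB), a hapten used to provoke contact allergy. The 2 wild-type mice carried the floxed RelA allele on both chromosomes (RelAfl/fl). The 2 mutant mice carried the same floxed allele together with K14Cre, a Cre recombinase driven by the promoter of keratin 14, a keratin of basal keratinocytes. All 4 ears were thus floxed for RelA, a subunit of NF-kB, and treated with DNFB, and only the mutants carried the recombinase. The labels used here give no age, strain, litter or deleted exon, and an effect of carrying the recombinase cannot be told apart from one of the deletion.

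Each ear gave 1 one-colour array, with a median intensity between 47.2 and 54.6, between 61.2% and 64.3% of spots well above background and 0 saturated spots. The keratinocyte markers Krt1, Krt5, Krt10 and Krt14 were all measured in these ears, with a summed intensity between 928 and 1120 times the array's 75th percentile. Rela itself, at its probe on chromosome 19 (5648070 to 5648129), read 4.48 and 4.60 in the wild type, against 4.59 and 4.72 in the mutants. That spot lies in a corner where the array of mutant mouse 2 is damaged, as do 24 of the 393 probes of the interval. Whether the probe reads the deleted part of RelA is not known, so it checks nothing about the labels.

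A chromosome interval of this size holds genes with nothing in common but their place. Mice inherit chromosomes in long stretches, so that lines made from different strains can carry different versions of a stretch and of all the genes on it. A microarray reads each transcript through short probes, and the signal of a probe depends both on how much of the transcript is present and on how well the transcript pairs with the probe. Several probes for 1 gene therefore give separate readings of it. The interval holds genes of many kinds: Hdac1 and Rbbp4, which act together in complexes that remove acetyl groups from histones, Sfn (stratifin, a protein of differentiating keratinocytes), and genes of leukocytes such as Cd52, Laptm5, Fgr and Ptafr.

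The sequences shown first are those of probes that separated the groups most clearly, from genes with a full symbol only. Other probes of the same gene stand with them where it had any, since in several genes only some probes differed. Each line gives the middle 30 bases (bases 16 to 45) of a 60-base probe in the direction of the transcript, as deposited, named by the gene and the first base of the probe on chromosome 4. Capitals mark the letters AATAAA, the common polyadenylation signal, where they fall in this stretch.
S100pbp at 128828117: atcacattttcctctgctatttttgtttgt
S100pbp at 128854429: tttctaactttaaaggtctagaatgctaat
S100pbp at 128855486: agcaaagtcattgctcatatagaagatcca
Rbbp4 at 128984623: attgttttatacattgactaagcagtacat
Rbbp4 at 128986934: ctggtgaactgtcaagttgagaaagagtgg
Hdac1 at 129193374: ctagcttcctttttgagatattttcatttt
Hdac1 at 129193527: gaggggtctgggtctcctaggacccctttt
Hdac1 at 129193716: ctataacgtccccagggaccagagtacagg
Ptafr at 132136722: ctcaaatgtaaccagaggAATAAAcacaga
Tmem222 at 132821960: cctttataaggggctccctggcaggaaata
Trnp1 at 133047017: tcccaactatatacacgcaagaagAATAAA
Trnp1 at 133047523: cttcccatacactgtatttgcctttgctga
Gpn2 at 133145692: tacaggctgtggataaagctaatggctact
Gpn2 at 133147418: cacgcatagcaccctttgtggtgccgacaa
Gpn2 at 133147563: agggatttggagaacaaagaaatgtcttta
Pigv at 133217343: aaagcacacgaggccctaatttcagtaata

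Of the 393 probes, 279 passed the filter on dim probes, which keeps a probe where 1 genotype or both had signal well above background in both mice. They stand for 175 names, 126 of them full symbols. The 11 symbols without such a probe were Tssk3, Rhd, Nr0b2, Hmgb4, Fam229a, Ldc1, Tmem200b, Zpld2, Matn1, Oprd1 and Zbtb8b, and are not described further. All values below are log2 intensities relative to the array's 75th percentile. A difference is mutant minus wild type on this scale, with limma's moderated standard error and 2 mice per group.

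Most genes of the interval had nearly the same values in both groups, and those with the smallest p-values all lay in 1 direction. The median difference over the 279 probes was 0.01, as it was over all 33664 tested probes of the array, with 133 probes below 0 and 146 above. Of the 279 probes 16 had an unadjusted limma p under 0.01, and 16 of these 16 were lower in the mutants. Over all tested probes 0.894% were lower and 0.802% higher by that rule. A difference of 1.5-fold or more without overlap was seen at 17 probes that were lower and 2 that were higher, where all tested probes gave 2.1% and 1.94%. Of the 17, 2 reach that size only by signals below background in the mutants, which leaves 15. The interval was picked for lower values, so nothing is read from the excess. Without any demand on size, 69 probes were lower and 51 higher with no overlap between the groups, beside 17.6% and 18.7% of all tested probes. Past an adjusted p of 0.05 was 1 probe of the interval, that of Rbbp4 described next, among 7 of all tested probes (0.0208%). Without wild-type mouse 1 the 16 probes became 9, and 0 probes passed the adjusted threshold without wild-type mouse 1, without wild-type mouse 2 or without mutant mouse 2.

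**Figure D1:**
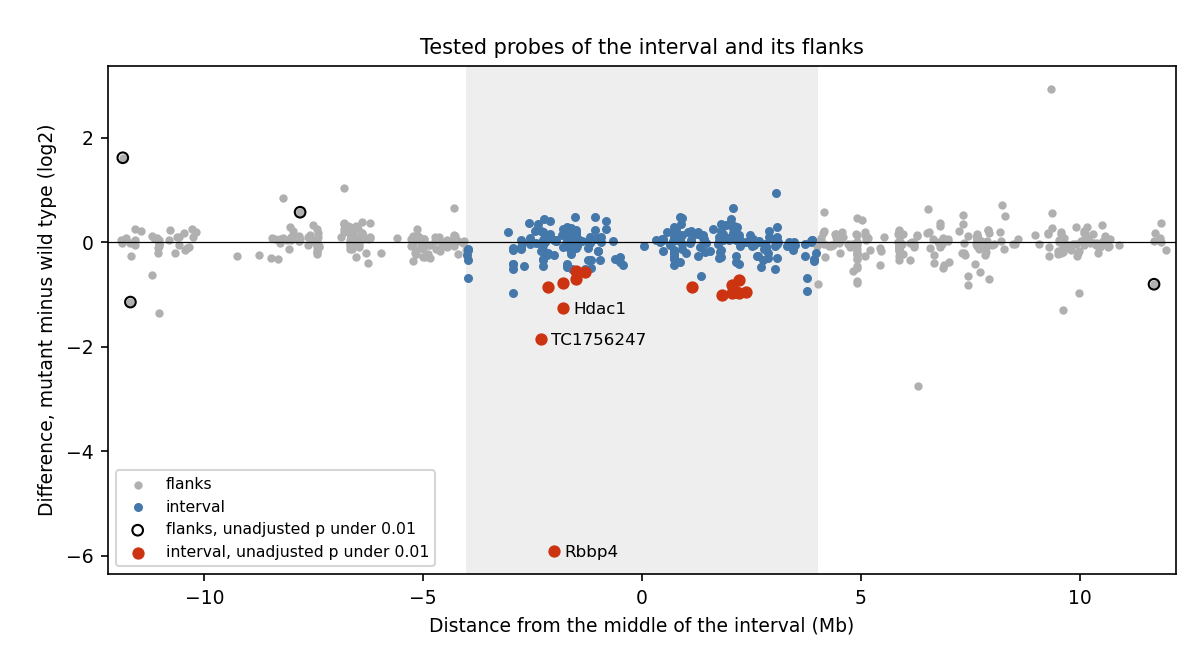
Difference between mutant and wild type (log2, vertical axis) at each tested probe of the interval (shaded) and of the flanks on both sides, against the distance from the middle of the interval in Mb. The 16 probes of the interval with an unadjusted p under 0.01 (red) all lie below 0, from -0.54 to -5.91 at Rbbp4, in 2 groups with none between them. The probe of Snhg12, left out by the rule and lower in the mutants, lies between the 2 groups and is not drawn.

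Rbbp4 and Hdac1, the genes of histone deacetylase complexes named above, showed the disagreement between probes most plainly. Rbbp4, which encodes a histone-binding subunit of several chromatin complexes, has a probe at 128984623 to 128984682 that read -1.90 and -1.41 in the wild type, against -7.46 and -7.66 in the mutants. Its spot was well above background in both wild-type mice and in neither mutant. With each mutant set to the lowest signal still called above background on its array, the mutants were at least 13.4-fold lower at this probe, a bound that holds only for the deposited processed intensities. The measured difference was -5.91 ± 0.21, and -1.96 when the background was corrected by normexp. The other tested probe of Rbbp4, at 128986934 to 128986993, read 3.63 and 3.73 in the wild type, against 3.38 and 3.48 in the mutants. The groups did not overlap there either, but the difference was only -0.25 ± 0.12.

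Hdac1, the histone deacetylase that binds Rbbp4, was read by 3 probes that together cover 402 bases of the chromosome. At 129193527 to 129193586 the wild-type mice stood at 2.19 and 2.24 and the mutants at 0.94 and 0.98, a difference of -1.26 ± 0.11. At 129193716 to 129193775 the values were -0.10 and 0.04 in the wild-type mice and -0.86 and -0.77 in the mutants, a difference of -0.78 ± 0.12. Both probes separated the groups by far more than the mice of a group differed. Its remaining probe, at 129193374 to 129193433, gave 4.57 and 4.67 in the wild-type mice and 4.42 and 4.62 in the mutants, which overlap (-0.09 ± 0.13). The spot of that probe lies in the damaged corner.

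S100pbp, which encodes a protein that binds a calcium-binding S100 protein, also had 3 tested probes. Only the probe at 128854429 to 128854488 separated the groups clearly, with -2.06 and -2.18 in the wild-type mice and -3.01 and -2.93 in the mutants (-0.85 ± 0.12). The probe at 128855486 had a difference of -0.20 ± 0.14 and the one at 128828117 of 0.07 ± 0.11. Gpn2, a GTPase gene, had the same pattern. Its middle probe, at 133147418 to 133147477, read -0.64 and -0.37 in the wild type, against -1.41 and -1.50 in the mutants (-0.95 ± 0.14). The probes on either side of it, at 133145692 and 133147563, had differences of 0.04 ± 0.13 and 0.14 ± 0.17, and the groups overlapped at both.

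In Trnp1, which encodes a nuclear protein that regulates cell proliferation, both tested probes were lower in the mutants. At 133047017 to 133047076 the values were 2.04 and 1.75 in the wild-type mice and 0.84 and 1.01 in the mutants, and at 133047523 to 133047582 they were -0.89 and -1.36 against -2.00 and -1.88. The differences of -0.97 ± 0.15 and -0.81 ± 0.19 lay within each other's error. Adgrb2, an adhesion receptor gene of the nervous system, had -0.56 ± 0.11 at 129698824 and -0.51 ± 0.15 at 129699818, also alike. For these 2 genes the probes thus did not disagree.

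**Figure D2:**
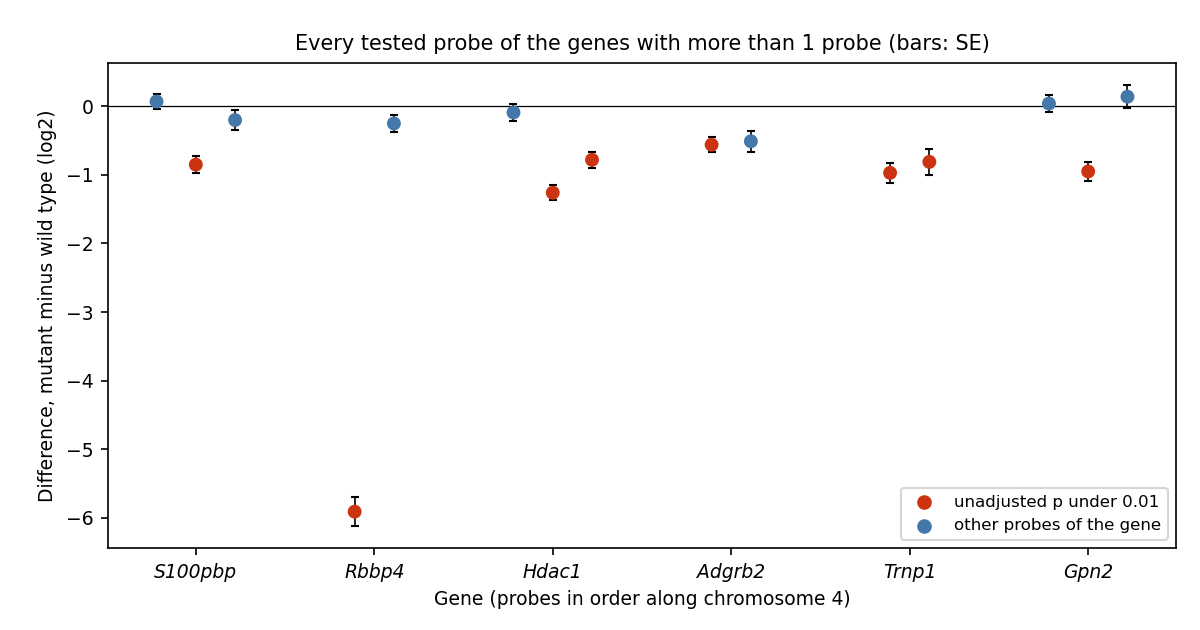
Difference between mutant and wild type (log2, vertical axis) at every tested probe of the 6 named genes with more than 1 tested probe, in order along chromosome 4, with limma's standard error as bars. Red marks an unadjusted p under 0.01. In S100pbp, Rbbp4, Hdac1 and Gpn2 a probe near 0 stands beside a clearly lower one, while the probes of Trnp1 and Adgrb2 lie close together.

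The other 3 named genes had a single tested probe, so that no other reading stands beside them. Tmem222, which encodes a membrane protein, read 2.26 and 2.37 in the wild type, against 1.22 and 1.40 in the mutants at 132821960 to 132822019 (-1.01 ± 0.13, 2.01-fold lower). Pigv, a mannosyltransferase in the synthesis of the GPI anchors of surface proteins, stood at 0.31 and 0.05 against -0.72 and -0.85 at 133217343 to 133217402 (-0.96 ± 0.14). Ptafr, the receptor for platelet-activating factor on leukocytes, stood at -1.96 and -2.25 against -2.87 and -3.05 at 132136722 to 132136781 (-0.85 ± 0.16). In each of them both mutant values lay below both wild-type values, with a gap wider than the spread within either group.

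**Figure D3:**
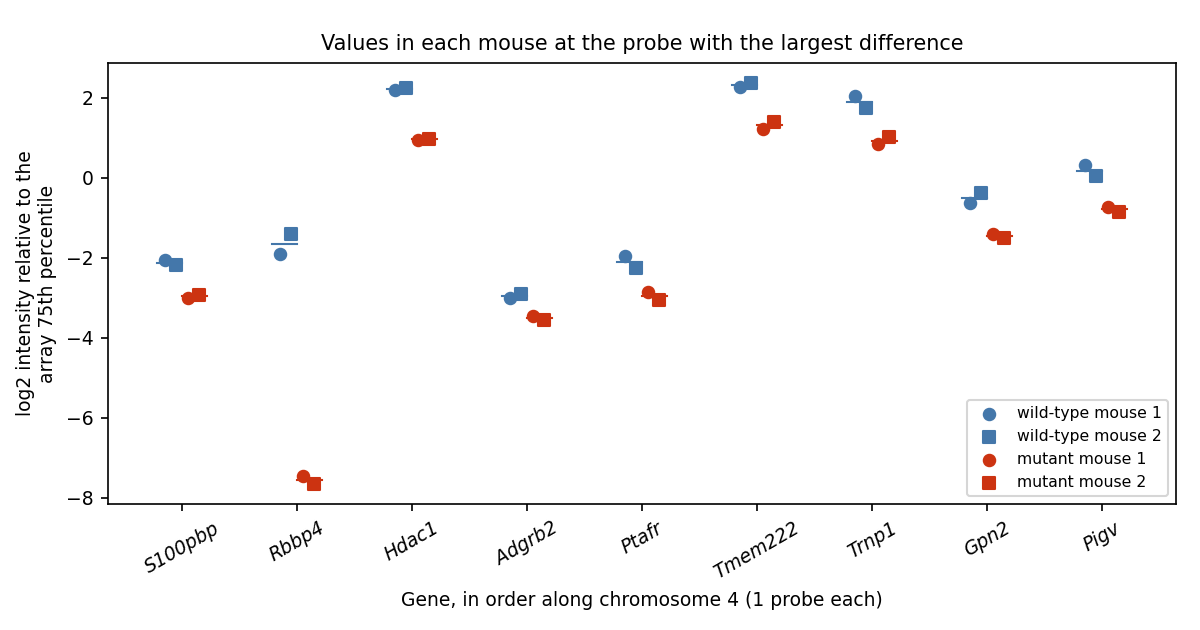
Log2 intensity after scaling to the 75th percentile of the array (vertical axis) in each of the 4 mice, at the probe with the largest difference of each of the 9 named genes in order along chromosome 4, with short lines for the group means. At all 9 probes both mutants (red) lie below both wild-type mice (blue), and the widest separation is that of Rbbp4, at -1.90 and -1.41 against -7.46 and -7.66.

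The remaining probes with an unadjusted p under 0.01 belong to transcripts without a full gene symbol, and the 4 given here were picked after their values were seen. A predicted transcript on the reverse strand was lower at adjoining probes that start at 129498550 (-0.54 ± 0.12) and 129498610 (-0.70 ± 0.12). Its other probe, at 129498025, had 0.20 ± 0.15. A probe of the opposite strand at the very same bases, 129498610, had 0.03 ± 0.12, so that there the difference was on 1 strand only. Probes at 133213853 (-0.71 ± 0.14, in the damaged corner) and 133376363 (-0.96 ± 0.13) were well above background in the wild type only, so that their differences are bounds, at least 1.37-fold and at least 1.39-fold lower.

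Across these 16 probes, 8 of the 13 genes or transcripts had more than 1 tested probe. In 1 of the 8, Trnp1, all tested probes were in the set, and in 7 only some were. The 7 include Adgrb2, whose probes were alike and fell on both sides of the p threshold. The 10 further probes of these 7 had differences from -0.51 to 0.20, and 0 of the 10 were lower by 1.5-fold or more without overlap. Disagreement between probes is not rare elsewhere on the array. The interval had 72 names with several tested probes, counting only names whose tested probes were all members. Of these, 7 had probes whose differences lay at least 1.5-fold apart, beside 9.45% of the 6696 names with several tested probes on the whole array. They were Rbbp4, Hdac1, Gpn2, S100pbp, Iqcc, Selenon and a predicted transcript. The reverse-strand transcript described above is not among the 72, although its member probes, from -0.70 to 0.20, lay that far apart too. The median gap between probes was 0.15 both in the 72 names and on the whole array. Some of these names had a probe at least 1.5-fold apart between the genotypes without overlap. All their probes were so in 1 of 8 such names of the interval, beside 63 of 510 on the whole array.

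The 16 probes had a median level over all 4 mice of -2.03, beside -0.49 for the other 263 tested probes of the interval. That level includes the low mutant values that put the probes in the set, so part of the gap follows from the choice. Of the 16, 11 lay on the minus strand, beside 154 of all 279. On mm9 16 of 16 covered exactly 60 bases, as did 31770 of the 33449 tested probes with a position. Their GC share ranged from 35% to 55% with a median of 45%, the same median as the other 263 tested probes of the interval. The letters AATAAA stood in the transcript direction in 4 of the 16 (25%), in 12.5% of the other probes of the interval and in 12% of all tested probes, and the reverse complement TTTATT stood in 0, 2.66% and 3.9%. Whether the probe sequences match the genome of these mice was not tested. The largest spread between mice of 1 genotype at any of the 16 was 0.49 in the wild type and 0.20 in the mutants. The median spread over the 279 probes was 0.144 and 0.134.

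Along the chromosome the 16 probes formed 2 groups. The first 8 lay in a stretch of 1.01 Mb that ends at 129698883, with 75 tested probes, and the other 8 between 132136722 and 133376422, a stretch of 1.24 Mb with 52. None of the 49 probes tested between 130 and 132 Mb was among them. The probe of Snhg12, left out by the rule, lies in that gap (131866864 to 131866922) and read 0.98 and 1.12 in the wild type, against -7.56 and -7.73 in the mutants. With the mutants at the lowest signal called above background, that is at least 87.6-fold lower. Trnau1ap, a gene of selenoprotein synthesis beside it, had -0.38 ± 0.13 at its nearest probe (131867712), but 0.06 ± 0.14 and 0.03 ± 0.12 at its other probes. The stretches were drawn around the values, so their counts are only a description. Within them, 67 and 44 other probes did not reach that p.

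The values at the edges were as follows. Gja4, just outside the lower edge, had -0.15 ± 0.18. At the upper edge Rcan3, a calcineurin regulator (134968695), had -0.21 ± 0.11 and Nipal3, just outside, had 0.01 ± 0.22 and -0.07 ± 0.14 at its nearest probes. At its farthest probe (135019711) Nipal3 read -4.48 and -4.85 in the wild type, against -5.97 and -4.94 in the mutants (-0.79 ± 0.38), lower without overlap but with mutant mouse 1 far below the other. Inside the lower edge, a probe of a predicted transcript at 127020438 was also lower without overlap (-0.69 ± 0.34). In the 8 Mb below the interval 1 probe was lower and 2 higher at an unadjusted p under 0.01, of 174 tested, and in the 8 Mb above it 1 was lower and 0 higher of 221. The interval from 58 to 71 Mb on chromosome 11, picked in the same way, had 17 lower and 9 higher of 430. All lie beside the same 0.894% and 0.802% given above.

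By role, the list of immune cell genes was the one with most probes below the wild-type values. Of 19 tested probes for its 13 genes 10 were lower and 2 higher with no overlap, beside 17.6% and 18.7% of all tested probes. The median difference was -0.25 beside 0.01 over all tested probes. The list counts the 3 probes of Hdac1, which is not particular to leukocytes, and without them 8 of 16 were lower and 2 higher, with a median of -0.23. It still holds Stmn1, Marcksl1, Sh3bgrl3, Rcan3 and Rab42, so it is not a list of genes particular to leukocytes. The 2 higher probes were those of Marcksl1 and Rab42. Laptm5, a lysosomal membrane protein of blood cells, had 2.09 and 1.81 in the wild-type mice and 1.65 and 1.69 in the mutants at 130490785, and was lower at its other probe too (-0.28 ± 0.14 and -0.37 ± 0.13). Themis2, a signalling protein of B cells and macrophages, had 0.97 and 0.65 against 0.24 and 0.09 (-0.64 ± 0.16). Fgr, a kinase of myeloid cells, differed by only -0.16 ± 0.14, and the lymphocyte surface gene Cd52 by -0.25 ± 0.17 with overlapping groups. Rab42, a small GTPase gene, had 0.49 ± 0.14, the largest difference above 0 on this list, and Sh3bgrl3 had 0.01 at both of its probes.

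Markers of several cell types from elsewhere in the genome differed between the groups too. The summed intensity of 3 macrophage markers (Adgre1, Cd68 and Csf1r), relative to the 75th percentile, was 59.8 and 56.5 in the wild-type mice and 54.0 and 48.7 in the mutants, and 3 of 3 were lower with no overlap. That of 3 B cell markers was 0.698 and 0.728 against 0.555 and 0.612, with 2 of 3 lower. The sums of 3 T cell markers overlapped, at 11.1 and 9.04 against 8.21 and 9.20, with 1 of 3 lower. The sum of 4 neutrophil markers (Csf3r, Cxcr2, S100a8 and S100a9) was higher instead, 242 and 277 against 484 and 471. Of the 4, 2 were higher and 1 lower without overlap, and Csf3r had a difference of -0.08. A sum is set mostly by its brightest markers, so it need not hold for each of them. Outside the leukocytes, the sum of 4 melanocyte markers was 7.38 and 6.58 against 14.2 and 17.2, with 4 of 4 higher. That of 4 sebaceous gland markers was 13.5 and 11.2 against 7.59 and 7.77, with 2 of 4 lower. Of 4 markers each, fat had 2 lower, muscle 1 lower, keratinocytes 1 lower and 2 higher, and fibroblasts and cartilage 0 in either direction. All these counts without overlap lie beside 17.6% lower and 18.7% higher of all tested probes, and they rest on few markers. The listed markers Trac and Ms4a1 were not among the tested probes, and every marker in these sums passed the filter on dim probes. Their part in the values of the interval was not tested, and in whole tissue fewer cells of a type and less RNA per cell cannot be told apart.

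Genes of the epidermis were mixed. Of 19 probes for 13 genes 5 were lower and 3 higher without overlap, with a median of -0.15. The shares over all tested probes, which hold for the lists that follow too, were 17.6% and 18.7%. Outside Trnp1 and Clic4 the differences on this list were at most 0.5 in size. Sfn read 3.44 and 3.89 in the wild type, against 3.89 and 3.84 in the mutants. Kdf1, a keratinocyte differentiation factor, had 0.17 ± 0.12, and the kinase gene Map3k6 had 0.22 ± 0.13 and 0.35 ± 0.13 with no overlap at either probe. Sytl1, a protein of vesicle transport next to Map3k6, had -0.27 ± 0.16 and -0.15 ± 0.20. Clic4, a chloride channel gene, had -0.93 ± 0.62 at 134770416 and -0.68 ± 0.39 at 134772898. Neither is clear, since wild-type mouse 1 alone was high at the first (3.01, against 1.18, 1.25 and 1.08) and mutant mouse 2 alone low at the second (-3.10, against -1.83, -1.88 and -1.97), and both spots lie in the damaged corner.

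On the lists of general cellular genes most differences were small, with Hdac1, Tmem222 and Pigv as the listed genes 1.5-fold or more apart. Rbbp4 (-5.91 ± 0.21 and -0.25 ± 0.12), Gpn2 and S100pbp, described above, stand on no list and are not counted here. The list of RNA-binding and splicing genes had 23 probes for 14 genes, 2 lower and 4 higher without overlap, and a median of 0.05. Eif3i, a translation initiation factor, and Srrm1, a splicing factor, had differences from -0.01 to 0.05. Among the 24 probes of the chromatin and transcription list, which leaves out Rbbp4, 4 were lower and 4 higher. Of the lower ones 2 were those of Hdac1. The 4 probes of Hmgn2, a nucleosome-binding protein, lay between -0.06 and 0.02, and Rcc1, the nucleotide exchange factor of Ran, had 0.36 ± 0.21. Of 36 probes of the cytoskeleton, traffic and transport list 5 were lower and 6 higher, with a median of 0.03. The 2 lower by 1.5-fold or more were those of Tmem222 (-1.01 ± 0.13) and Pigv (-0.96 ± 0.14). Atpif1, an inhibitor of the mitochondrial ATP synthase, read 6.22 and 6.26 in the wild type, against 6.23 and 6.23 in the mutants.

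**Figure D4:**
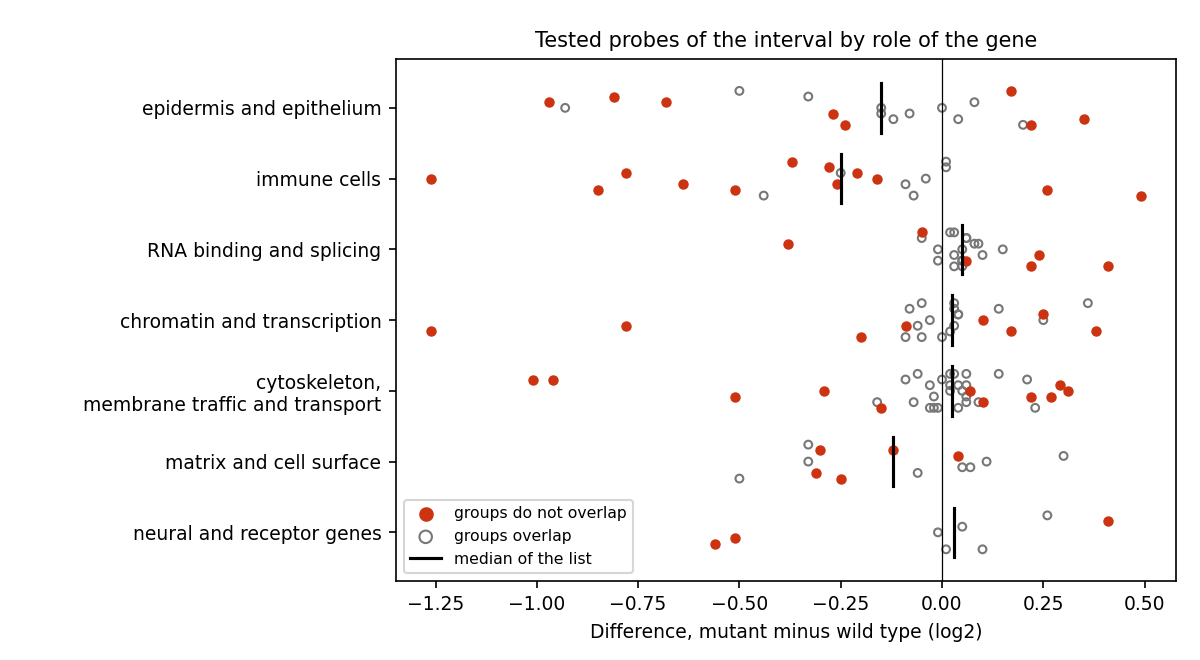
Difference between mutant and wild type (log2, horizontal axis) at the tested probes of genes on a role list, in rows by list. Points are filled where the 2 mutants and the 2 wild-type mice did not overlap, and a line marks the median of each list. Only part of the tested probes of the interval is shown, and Rbbp4, Gpn2, S100pbp and Paqr7 are on no list. The lists' medians lie between -0.25 for genes of immune cells and 0.05 for RNA-binding genes, and a gene can stand in more than 1 list.

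Matrix and cell surface genes had a median of -0.12 over 13 probes, with 4 lower and 1 higher without overlap, beside the same 17.6% and 18.7%. Sdc3, a heparan sulfate proteoglycan, had -0.31 ± 0.13 with no overlap. Col16a1, a collagen gene of the dermis, had 0.04 ± 0.11, -0.12 ± 0.11 and -0.33 ± 0.24. Selenon, a selenoprotein gene, had 0.30 ± 0.22 at 134093808 and -0.30 ± 0.11 at 134095374, opposite in sign. The neural and receptor genes were few, with 8 probes for 5 genes, 2 lower and 1 higher, the 2 being those of Adgrb2.

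Higher values in the mutants were small or uneven. The 2 probes at least 1.5-fold higher without overlap were those of Paqr7, a membrane receptor for progestins, and of a transcript near background. Paqr7, named after its values were seen, read 1.64 and 1.59 in the wild type, against 2.11 and 3.02 in the mutants. Its difference of 0.95 ± 0.32 was the largest above 0 in the interval, and mutant mouse 2 was the higher of the mutants. No probe of the interval had a higher value in the mutants at an unadjusted p under 0.01.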

How the data were processed

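Per the file headers, Agilent Feature Extraction 10.7.3.1 gave the deposited intensities, with spatial and multiplicative detrending, no local background correction, and surrogates for dim spots. Positions are on mm9. Deposited flags of 0 or 1 mark spots above background, saturated or outlying. The authors' deposited series table holds the linear ratio of each spot to the array median, matched within 1.46e-05 on the log2 scale. Control spots were left out, and log2 intensities minus each array's 75th percentile were averaged over unflagged spots of a probe. A probe was tested if well above background on both arrays of a group (33664 of 55681). Mutant minus wild type was fitted over these probes with lmFit and eBayes of limma 3.58.1 in R 4.3.3 (with data.table, version 1.17.8), two-sided, adjusted by Benjamini and Hochberg's method. The fit has 2 residual degrees of freedom, and the number of arrays limits precision. It was tested on simulated data. Symbols came from the files, replaced by RefSeq's (assembly GRCm38.p6) for 19 genes of the interval, where 201 of 393 probes matched. Figures used matplotlib 3.10.9 and python 3.11.15.

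The genes named were up to 12 per direction with the largest difference, no overlap, an unadjusted p under 0.01 and a full symbol outside the damaged corner, their other probes, up to 4 of each list with the highest signal, others of a list at least 1.5-fold apart, and genes at the edges. Further ones were picked to show a list's range after their values were seen. The interval, the lists and the damaged corner, a rectangle at the margin of 1 array, were chosen with earlier results of these data known. The replicate numbers do not pair the mice by any label and did not enter the model. No exon annotation was used, so exons and UTRs are not stated. Some genes of the interval are not reported here.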

Additional observations from a re-analysis of the deposited data

How the results depend on the processing

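Over the 9 settings that can move a difference, 125 of 126 values of the 14 named probes that separated the groups kept their direction. The other settings, such as the filters and the blocks, leave the difference of a probe as it is. The exception was S100pbp at 128855486, at 0.0029 with normexp background correction. Where the groups do not overlap, leaving out a mouse cannot reverse the direction, so those settings were no check of it. The series table holds ratios to the array median, so it and the array median are not separate settings. Rbbp4 at 128984623 ranged from -6.15 to -1.96. The probes with an unadjusted p under 0.01 numbered 8 with 1 probe per gene, and 9 to 13 when a mouse was left out. All of these were lower in the mutants, except 1 of the 12 without mutant mouse 1. With eBayes with trend and robust 4 probes stood past the adjusted threshold, beside 0.104% of all tested probes. With the left-out names put back the number was 2. It was 0 with no filter on dim probes, with probes above background on all 4 arrays and with 1 probe per gene, and 0 to 1 without a mouse. With the replicate block 0 probes passed it and 13 had an unadjusted p under 0.01, beside 0.00297% and 1.31% of all tested probes. Same-numbered mice tended only weakly to deviate in opposite directions (correlation -0.159 across probes). The crossed block, added after seeing the data, also gave 0 and 13. Without a mouse, probes lower without overlap numbered 95 to 115 and higher 71 to 114, since fewer values overlap less. Over all tested probes these settings gave 31.2% to 34.6% lower and 30.9% to 39.6% higher. With 1 probe per gene 31 were higher, beside 18.9% of all tested probes. The 8 with an unadjusted p under 0.01 in that setting stand beside 1.71% in either direction. When a mouse is left out, the lone mouse of a group is assumed to vary like the others. The median difference stayed within 0.03 of 0. It was 0.024 with normexp, -0.0077 with quantile normalization, 0.022 with the array median, 0.022 with the series table, -0.0084 with the percentile taken over detected probes, 0.017 with 1 Mb trimmed from each end of the interval and -0.026 to 0.014 without a mouse. The cause of these shifts was not tested.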
